A study of Homo sapiens with 8 samples.

Results

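Transcript levels of 10 genes that build tight junctions and desmosomes were followed through 8 RNA-seq libraries of A549, a human lung adenocarcinoma cell line. The genes were taken by their symbols from a table of 58302 genes: the tight junction genes CLDN1, CLDN2, CLDN4, CLDN12, OCLN and TJP1, and the desmosome genes DSP, JUP, PKP2 and DSG2. All 10 passed the filter on low counts that left 17676 genes for testing, so each has a result in every comparison.

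The study measured cells in which the receptor tyrosine kinase AXL was knocked down with a short hairpin RNA (AXL shRNA), cells with a control shRNA, cells treated with TP-0903, an inhibitor of AXL, at 40 nM, and control cells without a hairpin in their label. Each of the 4 groups had 2 libraries, described as biological replicates, and nothing says whether they came from separate cultures, so the p-values measure only the spread between these libraries. The sample names carry a P number, P3 or P15 in both shRNA groups and P4 or P17 in the control and TP-0903 groups. The sources used here do not give its meaning, the hairpin sequence, the length of treatment or what the control cells received. All groups share the one cell line and were grown in F12K medium with serum.

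Tight junctions seal the space between neighbouring epithelial cells. Claudins and occludin span the membrane and set which ions and solutes pass, and the scaffold ZO-1, made from TJP1, ties them to actin. Desmosomes rivet cells together through cadherins such as desmoglein 2, which bind plakoglobin (JUP) and plakophilin 2 (PKP2), and through these desmoplakin (DSP), which anchors keratin filaments. Loss of such genes is a known feature of epithelial cells that take on mesenchymal traits, a state in which AXL is often high.

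CLDN2 and CLDN4 spanned the widest range of levels among the 10 genes. Their changes had opposite signs in both comparisons, though those of CLDN2 did not pass the main test described below. A promoter window of each is shown here beside that of CLDN1, a claudin with a positive change in both comparisons. Each window runs from 250 bases before to 50 bases after a RefSeq transcription start (GRCh38.p14), and 9 of the 10 genes matched the table of windows; PKP2 had no entry. Capitals mark matches to TGANTCA, the core bound by AP-1, or to TTCNNNGAA, the core bound by STAT factors. The CLDN2 window shown lies at chrX:106899914-106900213 on the plus strand, that of CLDN4 at chr7:73830746-73831045 on the plus strand, and that of CLDN1 at chr3:190322397-190322696 on the minus strand.
CLDN2: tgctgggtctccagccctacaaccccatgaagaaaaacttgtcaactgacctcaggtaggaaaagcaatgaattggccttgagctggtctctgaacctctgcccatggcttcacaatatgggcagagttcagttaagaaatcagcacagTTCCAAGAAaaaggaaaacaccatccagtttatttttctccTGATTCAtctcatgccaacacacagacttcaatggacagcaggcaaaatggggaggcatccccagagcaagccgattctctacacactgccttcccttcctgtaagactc
CLDN4: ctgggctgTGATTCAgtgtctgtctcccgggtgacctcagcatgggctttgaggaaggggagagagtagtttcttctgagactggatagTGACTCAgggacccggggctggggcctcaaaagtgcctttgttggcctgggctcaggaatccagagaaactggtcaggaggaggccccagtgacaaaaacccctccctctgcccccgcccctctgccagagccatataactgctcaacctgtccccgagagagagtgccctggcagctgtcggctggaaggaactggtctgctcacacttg
CLDN1: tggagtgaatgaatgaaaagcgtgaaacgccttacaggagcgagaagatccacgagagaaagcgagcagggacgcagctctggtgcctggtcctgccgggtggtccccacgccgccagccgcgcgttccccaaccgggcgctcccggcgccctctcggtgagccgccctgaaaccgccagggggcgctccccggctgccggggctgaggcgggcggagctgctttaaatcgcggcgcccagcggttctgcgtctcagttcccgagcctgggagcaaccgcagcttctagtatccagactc

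CLDN2 has a further window at chrX:106918110-106918409 on the plus strand, which held no match to any motif searched. The CLDN2 window shown held TGATTCA with its first base at position -60 from the start and TTCCAAGAA at -101. The CLDN4 window held TGATTCA at -242 and TGACTCA at -161, and the CLDN1 window held no match to any motif searched. Both strands were read for 4 motifs. TGANTCA occurs in 7.71% of all 35116 windows in the table, TTCNNNGAA in 7.66%, the E-box CAGGTG bound by SNAI and ZEB repressors in 20.6%, and AACNNGTT, a core bound by grainyhead-like factors, in 3.52%. Among the members, TTCNNNGAA also occurred in the CLDN12 window, CAGGTG occurred in a window of OCLN, TJP1, DSP, JUP and DSG2, and AACNNGTT occurred in none. These matches are letters in a window and were not tested as binding sites.

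The genes lie on separate chromosomes apart from CLDN4 and CLDN12, which are both on chromosome 7. In the GRCh38 annotation CLDN1 spans chr3:190305701-190322475, CLDN2 chrX:106900164-106930861, CLDN4 chr7:73799542-73832693, CLDN12 chr7:90383721-90513402, OCLN chr5:69492292-69558104 and TJP1 chr15:29699367-29968865. DSP spans chr6:7541575-7586717, JUP chr17:41754604-41786931, PKP2 chr12:32790745-32896840 and DSG2 chr18:31498043-31549008.

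Libraries held 30067011 to 44217023 estimated counts, and the 10 genes made up 0.105% to 0.175% of them. Counts are given below as CPM after edgeR's TMM scaling, and levels of different genes are compared only as TPM, a unit that also divides by transcript length. Changes are log2 fold changes from edgeR's quasi-likelihood test with their standard error (SE) and a Benjamini-Hochberg adjusted p over all 17676 genes, called at 0.05. Because the P numbers match within each comparison, the adjusted p of a fit that adds the P number as a block is given where it changes a call. In bulk RNA, fewer cells of a type and less RNA per cell cannot be told apart. The knockdown target AXL read 85.1 (P15) and 139 (P3) CPM with control shRNA, and 55.4 (P15) and 63.0 (P3) with AXL shRNA. It was 65.1% and 45.1% of its control at P15 and P3, a log2 change of -0.92 (SE 0.42, adjusted p = 0.12), which passed with the block (adjusted p = 8.58e-04). AXL stood at 129% (P17) and 147% (P4) of its control with TP-0903. That change was 0.46 on the log2 scale with the block (adjusted p = 0.0354 by edgeR).

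By TPM the plakoglobin gene JUP was the highest of the 10 in each library, from 160 to 306 TPM, and no library of DSG2 (50.3 to 90.8 TPM) reached that range. After JUP the order of the means over the 8 libraries was DSG2, CLDN1, TJP1, CLDN2, CLDN12, DSP, OCLN, CLDN4 and PKP2. Each neighbouring pair below JUP overlapped in range. CLDN12 was the steadiest, from 19.5 to 29.2 TPM, a span of 1.49-fold. CLDN2 was the most variable, from 3.49 TPM in a TP-0903 library to 181 TPM in a control shRNA library, a span of 51.8-fold. CLDN4 spanned 7.18-fold (4.17 to 29.96 TPM) and PKP2 5.67-fold (3.56 to 20.2 TPM).

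**Figure D1:**
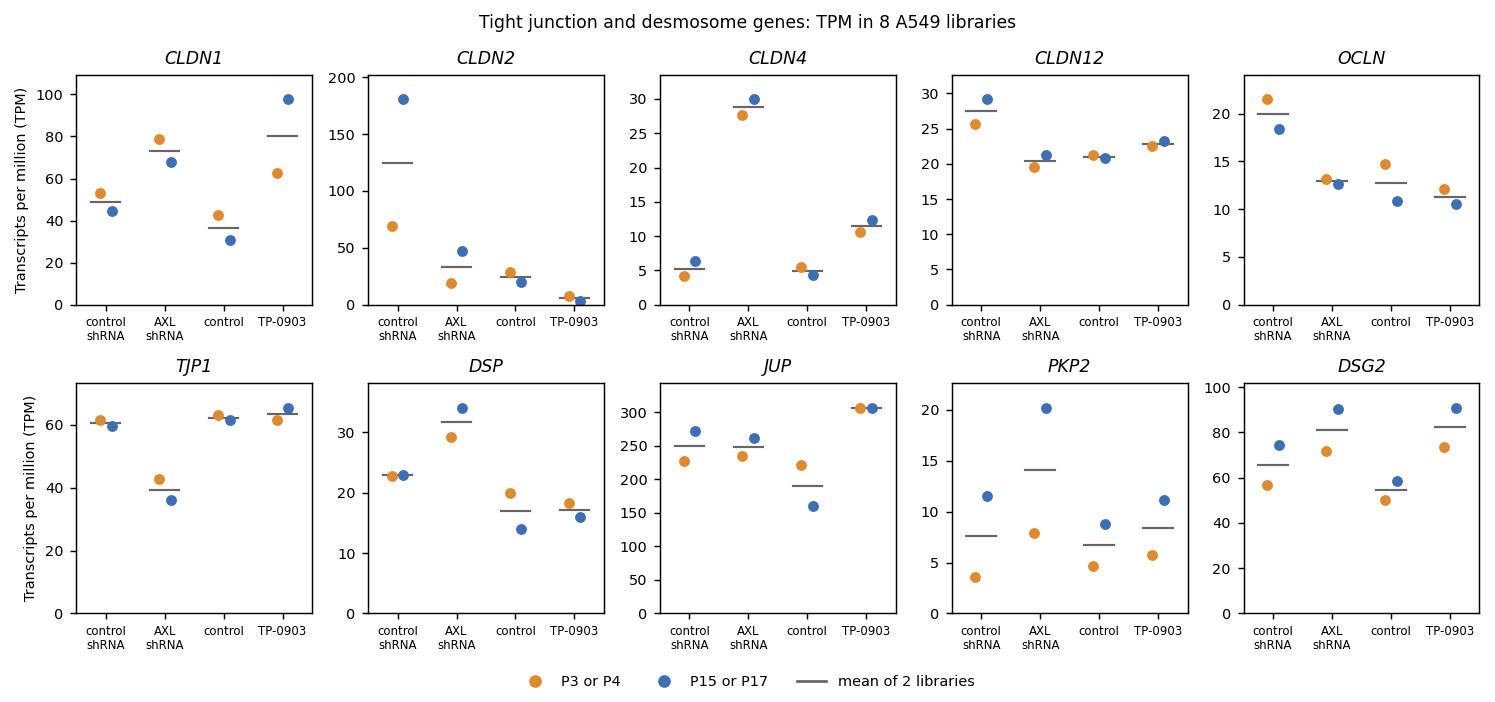
TPM of each of the 10 genes (vertical axis, own scale per panel, from 0) in the 4 groups (horizontal axis); points are libraries, orange for P3 or P4 and blue for P15 or P17, and bars are means of 2. CLDN4 was highest in AXL shRNA (27.6 and 29.96 TPM), CLDN2 was lowest in TP-0903 (7.84 and 3.49 TPM), and PKP2 lay lower in the orange library of every group.

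With AXL shRNA, 4 of the 10 genes rose (CLDN4, CLDN1, DSP and DSG2) and 1 fell (TJP1), while 5 did not pass the test. The background in this comparison was high: 37.5% of tested genes passed, 18.5% as higher and 19.0% as lower. The median log2 change was 0.39 over the 10 genes and -0.01 over all genes, and it was 0.62 over the 4 desmosome genes and -0.28 over the 6 tight junction genes. With the P number as a block, 5 rose and 3 fell, against 25.6% higher and 26.1% lower of all genes. In CPM the 2 libraries of each group did not overlap for 9 of the 10 genes (5 above, 4 below), against 70.0% of all tested genes. The exception was PKP2, and on the TPM scale the groups of DSG2 and JUP overlapped as well. Under limma on log2(TPM + 1), which has no TMM scaling, the median of all genes moved to -0.15 and 31.3% of calls were higher in place of 49.4%. There CLDN4 rose and CLDN2, CLDN12, OCLN and TJP1 fell, and CLDN1, DSP and DSG2 kept a positive change but lost the call (adjusted p = 0.1, 0.0919 and 0.24 by limma).

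Among the tight junction genes, CLDN4, a claudin that tightens the barrier to sodium in many epithelia, moved furthest. It read 8.30 (P15) and 6.22 (P3) CPM with control shRNA and 42.8 and 38.4 CPM with AXL shRNA. The groups lay far apart, and the log2 change was 2.48 (SE 0.22, adjusted p = 5.50e-04 by edgeR), a 5.59-fold rise. It passed in each of the 8 fits that left out 1 library.

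CLDN1, a sealing claudin, read 95.9 (P15) and 125 (P3) CPM with control shRNA and 180 and 209 CPM with AXL shRNA. Both knockdown libraries lay above both controls, with a log2 change of 0.82 (SE 0.26, adjusted p = 0.0449 by edgeR). The call was lost without control shRNA P15 (adjusted p = 0.202), control shRNA P3 (0.0696), AXL shRNA P15 (0.0825) or AXL shRNA P3 (0.162).

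CLDN2, which forms channels for cations and water, went the other way. It read 324 (P15) and 135 (P3) CPM with control shRNA and 105 and 42.2 CPM with AXL shRNA. The knockdown library of each P number stood at nearly the same share of its control, 32.5% at P15 and 31.2% at P3, although the P15 library of each group was above its P3 library. The log2 change was -1.64 (SE 0.58, adjusted p = 0.0622 by edgeR), which did not pass; with the block it was -1.65 and passed (adjusted p = 5.32e-05).

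TJP1, the ZO-1 scaffold gene, fell with AXL shRNA. It read 196 (P15) and 233 (P3) CPM with control shRNA and 152 and 172 CPM with AXL shRNA, so the groups did not overlap. The log2 change was -0.41 (SE 0.13, adjusted p = 0.0418 by edgeR). Of the 8 fits that each left out a library, only that without control shRNA P15 kept the call (adjusted p = 0.0351); the others gave adjusted p of 0.0612 to 0.189.

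OCLN, the occludin gene, read 28.4 (P15) and 36.0 (P3) CPM with control shRNA and 25.9 and 22.4 CPM with AXL shRNA. Its log2 difference of -0.42 (SE 0.19) did not pass (adjusted p = 0.117 by edgeR) but did with the block (0.0429). CLDN12, a claudin of broad expression, read 59.1 and 57.7 CPM with control shRNA against 55.2 and 50.2 CPM with AXL shRNA. Its log2 difference was -0.15 with a 95% interval from -0.39 to 0.09 (adjusted p = 0.288 by edgeR). Part of the CLDN12 exons, 347 bases, lies on exons of GTPBP10 on the same strand, so its count depends on how the authors' program divided shared reads.

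The desmosome genes were all positive in this comparison. DSP, the plakin that holds keratin, read 136 (P15) and 149 (P3) CPM with control shRNA and 248 and 208 CPM with AXL shRNA. It rose by 0.68 on the log2 scale (SE 0.18, adjusted p = 0.0248 by edgeR), and lost the call without control shRNA P15 (0.119), AXL shRNA P15 (0.116) or control shRNA P3 (0.0702). DSG2, the desmosomal cadherin, read 278 and 233 CPM against 422 and 330 CPM.

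The groups of DSG2 did not overlap, and it rose by 0.56 (SE 0.18, adjusted p = 0.045 by edgeR). Of the fits without 1 library, only that without AXL shRNA P3 kept this call (adjusted p = 0.0429), and the others gave 0.0515 to 0.220. PKP2, the armadillo protein that links cadherins to desmoplakin, read 25.1 (P15) and 9.91 (P3) CPM with control shRNA and 61.4 and 23.0 CPM with AXL shRNA. The groups overlapped because the P15 control stood above the P3 knockdown, yet the knockdown was 245% and 232% of its control at P15 and P3.

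The log2 change of PKP2 was 1.27 (SE 0.66, adjusted p = 0.172 by edgeR), and with the block 1.25 (adjusted p = 6.96e-05). JUP read 466 and 434 CPM with control shRNA and 562 and 486 CPM with AXL shRNA. Its log2 difference of 0.22 had a 95% interval from -0.19 to 0.63 (adjusted p = 0.351 by edgeR). On the TPM scale the JUP groups overlapped, at 271 and 227 TPM against 262 and 234 TPM, and the log2 difference was -0.0048.

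**Figure D2:**
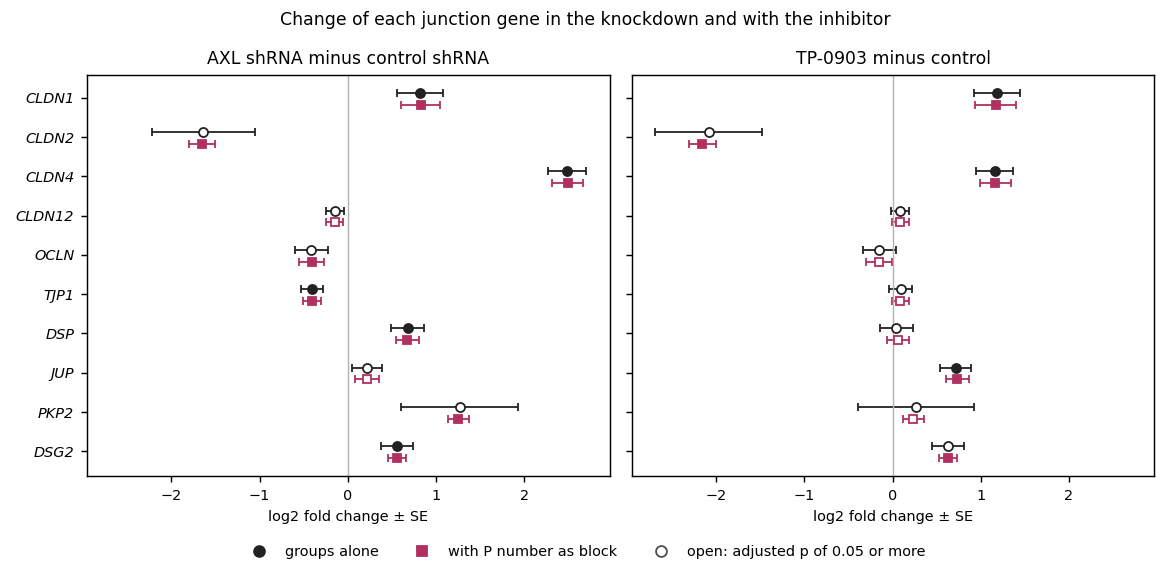
Log2 fold change with its SE for each gene (vertical axis) in AXL shRNA minus control shRNA (left) and TP-0903 minus control (right); circles are the fit on groups alone, squares the fit with the P number as block, and filled symbols have an adjusted p under 0.05. CLDN4 and CLDN1 lie to the right and CLDN2 to the left in both panels, and the block narrows the bars of CLDN2 and PKP2.

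With TP-0903, 3 of the 10 genes rose (CLDN1, CLDN4 and JUP) and none fell by edgeR's test. Of all tested genes 11.3% passed and 4.90% were higher. An unadjusted p under 0.05 was reached by 5 of the 10 and by 28.5% of all genes. The median log2 change was 0.18 over the 10 genes and -0.02 over all genes. With the block 4 rose and 1 fell, against 12.9% higher and 13.4% lower of all genes. In CPM the groups did not overlap for 7 of the 10 genes (6 above, 1 below), against 59.8% of all tested genes. In TPM those of TJP1 overlapped.

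CLDN1 read 67.5 (P17) and 96.9 (P4) CPM in control cells and 228 and 145 CPM with TP-0903. Both treated libraries lay above both controls, by 3.38-fold at P17 and 1.498-fold at P4. The log2 change was 1.18 (SE 0.26, adjusted p = 0.0317 by edgeR), and the call was lost without TP-0903 P17 (0.182), control P17 (0.166) or control P4 (0.0554).

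CLDN4 read 5.44 (P17) and 7.29 (P4) CPM in control cells and 15.4 and 13.1 CPM with TP-0903. It rose by 1.16 on the log2 scale (SE 0.21, adjusted p = 0.0149 by edgeR), a 2.23-fold change, and the call was lost without TP-0903 P17 (0.107) or control P17 (0.0907). JUP read 285 and 399 CPM in control cells and 557 and 566 CPM with TP-0903. The treated JUP libraries were close together and above both controls.

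JUP rose by 0.72 (SE 0.17, adjusted p = 0.0409 by edgeR). Of the fits without 1 library, only that without control P4 kept the JUP call (0.0239), and the others gave 0.0564 to 0.178. DSG2 read 233 (P17) and 198 (P4) CPM in control cells and 369 and 300 CPM with TP-0903. It stood at 158% and 151% of its control at the P numbers, and its log2 change of 0.63 (SE 0.18) missed the threshold (adjusted p = 0.066 by edgeR) and passed with the block (0.00284).

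CLDN2 read 38.9 (P17) and 54.9 (P4) CPM in control cells and 6.82 and 15.3 CPM with TP-0903. It was the one gene with both treated libraries below both controls, at 17.5% and 27.9% of the control at P17 and P4. Its log2 change of -2.08 (SE 0.61) was the largest of the 10 in this comparison and did not pass (adjusted p = 0.0697 by edgeR); with the block it was -2.15 (3.67e-05). CLDN2 shares 341 exon bases with RIPPLY1 on the opposite strand, a gene with at most 4.43 counts in any library against 221 or more for CLDN2.

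TJP1, DSP, PKP2, OCLN and CLDN12 did not pass with TP-0903 in either fit. TJP1 read 227 (P17) and 228 (P4) CPM in control cells and 253 and 231 CPM with TP-0903, a log2 difference of 0.09 with a 95% interval from -0.21 to 0.39. DSP read 89.6 and 127 CPM against 104 and 120 CPM, a log2 difference of 0.04 (-0.39 to 0.47). PKP2 read 22.9 and 11.1 CPM against 28.5 and 12.3 CPM, with a wide interval from -1.28 to 1.81 around 0.26. OCLN read 19.1 and 23.1 CPM against 16.9 and 21.1 CPM (-0.15, from -0.59 to 0.29). CLDN12 read 44.6 and 44.7 CPM against 45.5 and 49.5 CPM, a log2 difference of 0.09 (-0.15 to 0.33). These intervals allow changes of different size: the one for CLDN12 is narrow and the one for PKP2 spans a fall and a rise.

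The difference between the effect of TP-0903 and that of AXL shRNA was tested directly, with 20.6% of all genes past the threshold. CLDN4 was the only member past it: its rise was smaller with TP-0903 by 1.32 on the log2 scale (difference -1.32, SE 0.30, adjusted p = 0.0209 by edgeR). The call was lost without AXL shRNA P15 (0.0624), control shRNA P3 (0.0561), control P4 (0.0635) or TP-0903 P4 (0.0761). With the block, under which 36.9% of all genes passed, 4 members did: CLDN4, TJP1 (0.49, adjusted p = 0.0259), DSP (-0.61, 0.0272) and PKP2 (-1.02, 0.00209). The ratio to control of PKP2 was 2.45 and 2.32 with AXL shRNA and 1.24 and 1.11 with TP-0903. Under limma on log2(TPM + 1), where the median of all genes was 0.14 and 63.5% of calls were higher in place of 47.6%, CLDN4 (-1.18) and TJP1 (0.64) passed. The CLDN2 effects differed by -0.44 with a 95% interval from -2.36 to 1.48, which sets no close limit on how far they differ.

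The 2 control groups differ in both hairpin and P numbers, which cannot be told apart. Across them 0 of the 10 genes passed edgeR's test, where 9.15% of all genes did. An unadjusted p under 0.05 was reached by 3 of the 10 and by 27.6% of all genes, and DESeq2 called 3 of the 10 and 15.6% of all genes. In CPM the libraries did not overlap for 5 of the 10 (CLDN2, CLDN12, OCLN, DSP and JUP, each above the control cells), against 57.1% of all genes. CLDN2 stood highest with control shRNA, at 324 and 135 CPM against 38.9 and 54.9 CPM in control cells (log2 difference 2.29, SE 0.60, adjusted p = 0.0561 by edgeR). The AXL shRNA libraries (105 and 42.2 CPM) therefore overlapped the control cells in CLDN2. The log2 differences of the other four were 0.61 for OCLN (adjusted p = 0.0847), 0.39 for CLDN12 (0.0579), 0.39 for DSP (0.22) and 0.39 for JUP (0.191), all by edgeR.

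PKP2 differed with the P number in every group. Each group has 1 library per number, so the number cannot be told apart from other differences between those libraries. The SE of a change with the number measures how alike the groups were, not the spread between cultures of a number. The low number (P3 or P4) against the high number (P15 or P17) read 9.91 against 25.1 CPM with control shRNA, 23.0 against 61.4 with AXL shRNA, 11.1 against 22.9 in control cells and 12.3 against 28.5 with TP-0903. In a fit with the groups as covariate PKP2 was lower at the low number by a log2 change of -1.26 (SE 0.09, adjusted p = 0.00253 by edgeR), and it passed in all 16 alternative fits. It was the only member past the threshold, against 4.92% of all genes. For DSG2 too the low-number library was the lower in all 4 groups, and its change of -0.29 (SE 0.07) missed the threshold (adjusted p = 0.0619 by edgeR). How many of all genes keep 1 direction in all 4 groups was not counted, so that pattern has no background here.

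CLDN2 had no single direction with the P number. In the fits below the 2 libraries of a P number are a control library and a knockdown or TP-0903 library. Their SE therefore measures how alike the 2 groups were, not the spread between cultures of that number. Within the 4 shRNA libraries it was lower at P3 than at P15, with a log2 change of -1.28 (SE 0.12, adjusted p = 0.00539 by edgeR), where 3.33% of genes passed. Within the 4 control and TP-0903 libraries it was higher at P4 than at P17, with a change of 0.79 (SE 0.16, adjusted p = 0.0374 by edgeR), where 6.46% passed. The difference between these changes, a test chosen after the values were seen, was -2.08 (SE 0.21, adjusted p = 0.00725 by edgeR), and 1.21% of all genes passed it. PKP2 passed within each set, at -1.37 (adjusted p = 0.00539) and -1.13 (0.0065), and the difference of -0.25 (SE 0.17) did not pass (adjusted p = 0.609).

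**Figure D3:**
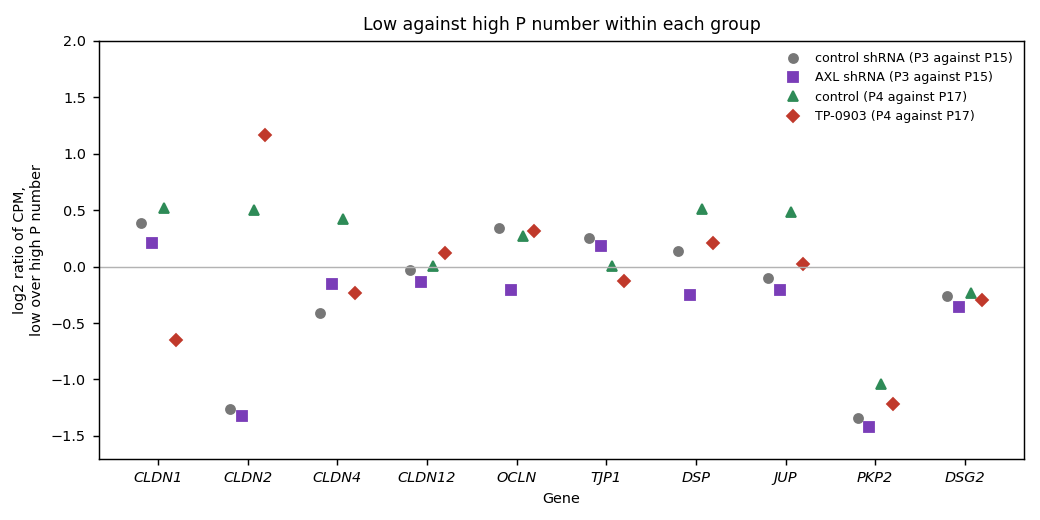
Log2 ratio of CPM in the low over the high P number library (vertical axis) for each gene (horizontal axis), with 1 symbol per group and no error bar, as each ratio comes from 2 libraries. The 4 PKP2 symbols lie between -1.42 and -1.04, the 4 DSG2 symbols between -0.36 and -0.24, and those of CLDN2 fall at -1.32 and -1.26 for the shRNA groups and at 0.50 and 1.17 for control and TP-0903.

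The same junctions, and the adherens junctions beside them, hold further genes, taken from 5 lists. Every gene of these lists called by edgeR on groups alone had the same direction on the TPM scale, but not the same size. With AXL shRNA, on log2(TPM + 1), CXADR changed by 0.26 in place of 0.86, EVPL by 0.18 in place of 0.51 and CTNNA1 by 0.23 in place of 0.47. The falls of CLDN15 (-0.76 in place of -0.57), MAGI1 (-0.70 in place of -0.59) and MPDZ (-0.76 in place of -0.63) were larger there. Beside the counts below, 18.5% of all tested genes rose and 19.0% fell with AXL shRNA, and 4.90% rose with TP-0903. With the block 25.6% rose and 26.1% fell with AXL shRNA, and 12.9% rose and 13.4% fell with TP-0903. Whether a list departs from these shares was not tested. Of 17 other claudins 8 were tested, and with AXL shRNA 3 fell and 0 rose, where 37.5% of all tested genes passed. The named one, CLDN15, changed by -0.57 (SE 0.17, adjusted p = 0.032 by edgeR); the other two, CLDN3 (-1.49) and CLDN7 (-1.74), lay under the 5 CPM mean that the naming rule asks for. With TP-0903 CLDN16 (2.20), also under that level, was the 1 call. With the block, CLDN7 (-1.83, adjusted p = 0.0207 by edgeR) and CLDN10 (-3.83, 0.0262) were further calls with TP-0903, both lower. CLDN10 lay near 0, at a mean of 0.25 CPM in control cells and 0.015 CPM with TP-0903. It did not pass with AXL shRNA (adjusted p = 0.173 by edgeR with the block).

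Of 10 other tight junction membrane proteins 7 were tested. With AXL shRNA 2 rose: the junctional adhesion molecule F11R by 0.93 (SE 0.19, adjusted p = 0.0086 by edgeR) and the receptor CXADR by 0.86 (SE 0.22, 0.0199). In TPM the means of CXADR lay close, at 12.96 (SD 3.95) with control shRNA and 15.6 (SD 4.02) with AXL shRNA. With TP-0903 none passed on groups alone, and with the block F11R (0.56, adjusted p = 0.013) and BVES (1.31, 0.00156) rose. The block added MARVELD3 (1.61, 0.00236) to those that rose with AXL shRNA. Among 19 scaffold and polarity genes 2 rose and 3 fell with AXL shRNA. CGN, whose product cingulin binds ZO-1, rose by 3.67 (SE 0.30, adjusted p = 4.51e-04 by edgeR), from 3.01 and 3.77 CPM to 52.2 and 34.1 CPM.

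PARD6B, a polarity gene, rose by 1.44, and the scaffolds MPDZ and MAGI1 fell by 0.63 and 0.59, each with AXL shRNA; PARD6A, under the 5 CPM mean, was the third to fall. With TP-0903 PRKCZ rose by 0.77 and YBX3 by 0.85 in that list, and CGN did not pass (-0.22, adjusted p = 0.663). YBX3 was placed in the list, though its product is itself neither a scaffold nor a polarity protein. With the block 4 of these 19 rose and 5 fell with AXL shRNA, against 25.6% and 26.1% of all tested genes. With TP-0903 3 rose and 4 fell in that fit, against 12.9% and 13.4%. The CGN effects differed by -3.88 between the comparisons (SE 0.40, adjusted p = 0.0017 by edgeR).

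Of 12 other desmosome genes 6 were tested, and with AXL shRNA 4 rose and 0 fell. The cadherin DSC2 rose by 1.82 (SE 0.22, adjusted p = 0.00118 by edgeR), the plakophilin PKP3 by 1.204 and the membrane protein PERP by 1.14; EVPL was the fourth, at 0.51. With TP-0903 3 rose and 0 fell: the cadherin DSC3 by 2.11 (SE 0.33, adjusted p = 0.00848 by edgeR), the plakin PPL by 1.42 and the plakin EVPL by 0.51. With the block 5 of the 6 rose with TP-0903, against 12.9% of all tested genes, DSC2 (0.60, adjusted p = 0.0447 by edgeR) and PERP (0.63, 0.00314) being added.

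Of 9 adherens junction genes 5 rose and 0 fell with AXL shRNA, among them the catenins CTNND1 (0.92) and CTNNB1 (0.70) and the nectin NECTIN2 (0.67). CDH1, which encodes E-cadherin, read 122 (P15) and 53.6 (P3) CPM with control shRNA and 220 and 76.6 CPM with AXL shRNA. Its log2 change of 0.75 (SE 0.51) did not pass (adjusted p = 0.28 by edgeR) and did with the block (0.00199). With TP-0903 2 rose, VCL by 1.28 and NECTIN2 by 0.65, and CDH1 was at -0.08 (adjusted p = 0.943). With the block 8 of the 9 rose with AXL shRNA and 4 with TP-0903, against 25.6% and 12.9% of all tested genes.

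**Figure D4:**
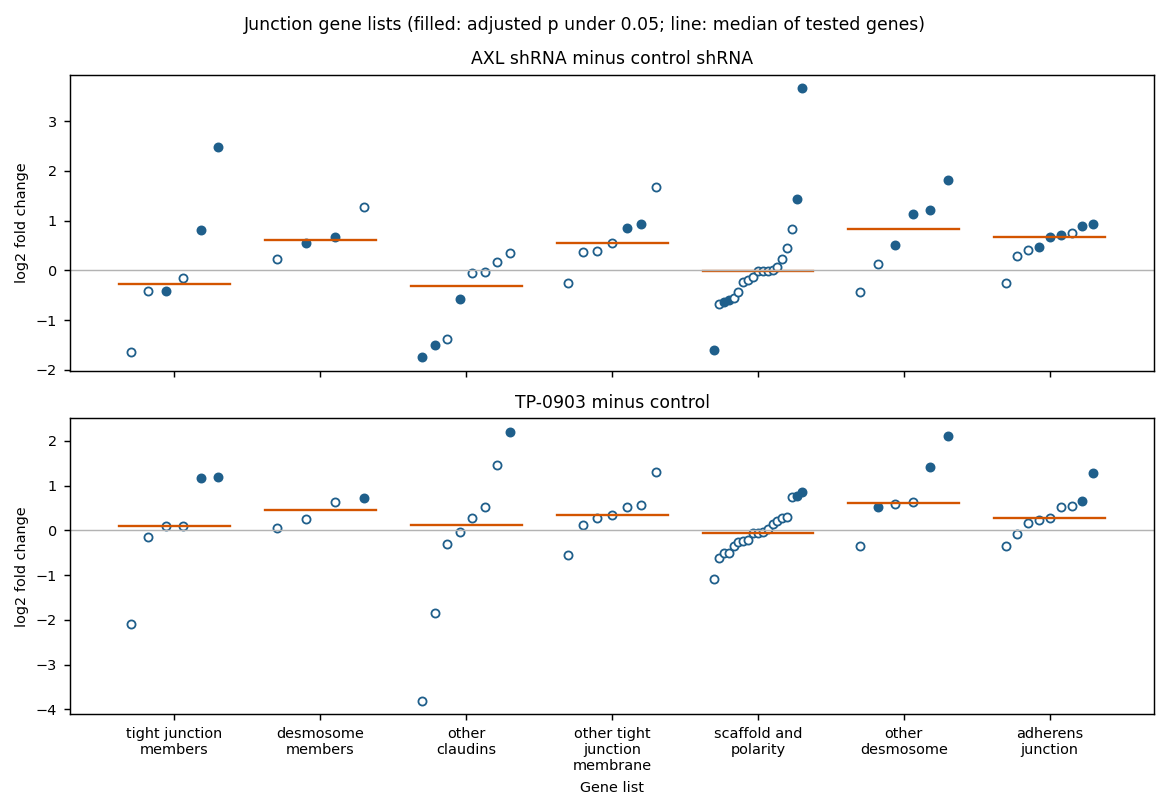
Log2 fold changes (vertical axis) of the tested genes in the 2 member lists and the 5 other junction lists (horizontal axis), for AXL shRNA (top) and TP-0903 (bottom); filled points have an adjusted p under 0.05 and lines are medians. With AXL shRNA the median was 0.83 for the other desmosome genes, 0.67 for the adherens junction genes and -0.31 for the other claudins, against -0.01 over all genes.

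Levels of cell type markers were set beside the members. The summed TPM of 9 lung epithelial markers was 6155 to 7333 with control shRNA and 18103 to 20521 with AXL shRNA. There 5 of the 6 tested rose, against 18.5% of all tested genes. The sum was 8961 to 10083 in control cells and 11711 to 12276 with TP-0903, where 2 of 6 rose, against 4.90%. Keratins made up nearly all of that sum. EPCAM, an epithelial adhesion gene, rose with AXL shRNA but stood at 53.8% (P17) and 40.2% (P4) of control with TP-0903 (log2 difference -1.10, adjusted p = 0.0578 by edgeR, and 0.00233 with the block). KRT18 stood at 97.6% and 99.6% of control there. The defining lung markers NKX2-1 (0 to 0.22 TPM), SFTPB (0 to 0.24 TPM) and SFTPC (0.05 to 1.57 TPM) were at or near 0 in every library. Sums of squamous or basal markers were 7.63 to 11.8 TPM with control shRNA and 33.2 to 68.5 TPM with AXL shRNA, of which KRT6A held the larger part. Those sums were 5.56 to 5.88 TPM in control cells and 9.53 to 10.3 TPM with TP-0903, where DSC3, the desmosomal cadherin named above, went from a mean of 1.64 to 6.87 TPM while the means of TP63 (3.41 and 2.73 TPM) and KRT6A (0.51 and 0.20 TPM) were not higher.

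Fibroblast sums were 6.89 to 8.54 TPM with control shRNA, 15.6 to 19.7 TPM with AXL shRNA, 7.37 to 10.5 TPM in control cells and 5.88 to 8.14 TPM with TP-0903. Endothelial sums stayed at or below 3.59 TPM and leukocyte sums at or below 8.91 TPM, with the endothelial receptor KDR listed at 0 in all libraries. Squamous or basal markers rose with AXL shRNA in 2 of 4 tested and fibroblast markers in 2 of 4, against 18.5% of all tested genes. Leukocyte markers split, with 1 higher and 1 lower of 2 tested. Adding the block, 3 of 4 fibroblast markers and the 1 endothelial marker tested rose, against 25.6%. Under TP-0903 on groups alone 1 of 4 squamous or basal markers rose, against 4.90%, and no fibroblast, endothelial or leukocyte marker passed. The part of these shifts in the member results was not tested.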

How the data were processed

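RNA from 8 A549 libraries in 4 groups of 2 was analysed. Libraries were made with Nextera XT, per the labels' protocols, a kit that does not mark strand, so reads of overlapping antisense genes cannot be told apart. The submitters' processing notes name STAR 2.5.3a, RSEM and GRCh38. The authors deposited expected counts (estimated counts per gene) and TPM for each library, per the file headers; the deposited FPKM values were not used, and the deposited effective lengths served in 1 alternative. Expected counts were rounded and tested with edgeR 4.0.16 in R 4.3.3: filterByExpr, TMM, 1 term per group over all 8 libraries, quasi-likelihood test, two-sided, Benjamini-Hochberg over 17676 genes. Biological variation was 21.5%. TPM enters levels only; limma 3.58.1 on log2(TPM + 1) and log2(TPM + 0.1) and DESeq2 1.42.0 were alternatives, computed from the deposited TPM and counts. Steps were tested on simulated data.

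The titles give the groups of each comparison the same P numbers, and the fit with the P number as a block rests on these labels. Deviations of same-numbered libraries from their group means correlated across genes at 0.444 (shRNA groups) and 0.450 (control and TP-0903), and those of groups without a shared number, matched as low or high, at 0.171 to 0.309. With 2 libraries a group these correlations cannot show a pairing by themselves. Within each group 48.1% to 53.9% of genes differed between the 2 libraries beyond counting error. That share cannot show that the libraries came from separate cultures. They were counted as separate, as they are described as biological replicates. The members and lists were chosen with earlier results of these data known. The text names all members, AXL, CDH1 and, per list and direction, up to 3 genes past the threshold with the smallest p and a mean of at least 5 CPM; others are named only to complete a count. The alternatives were another scaling (RLE), no filter, DESeq2, limma, effective lengths as offsets, fewer libraries in the fit, each library left out and the block.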

Additional observations from a re-analysis of the deposited data

Results flagged for a closer look

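The CLDN4 response differed between the 2 comparisons: the effect of TP-0903 minus that of AXL shRNA was -1.32 on the log2 scale (SE 0.30, adjusted p = 0.0209 by edgeR), with a rise in both pairs of libraries of both comparisons.

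The change of CLDN2 with the P number had opposite signs in the shRNA libraries and in the control and TP-0903 libraries. The difference between them was -2.08 on the log2 scale (SE 0.21, adjusted p = 0.00725 by edgeR), a test added after the values were seen. In the shRNA groups the 2 numbers are P3 and P15, and in the others P4 and P17, so the numbers differ as well as the groups.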

How the results depend on the processing

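With the P number as a replicate block, 8 members passed for AXL shRNA in place of 5, and 5 for TP-0903 in place of 3. For the difference of effects 4 passed in place of 1. Over all genes 9138 passed for AXL shRNA, 4647 for TP-0903 and 6530 for the difference, against 6627, 1989 and 3645. DESeq2 called 5 members and 3002 genes for TP-0903, 2 members (PKP2 and DSG2) and 1498 genes for the P number, and 3 members and 2758 genes for control shRNA against control. Without the filter on low counts 5 members and 3515 genes passed for TP-0903, and 3 members and 5026 genes for the difference. In that setting 1544 genes passed for the P number, and 2 members and 3352 genes for control shRNA against control. With only the 4 libraries compared 3 members and 5329 of 16932 genes passed for AXL shRNA. Limma on TPM called 2 members for the difference with either pseudocount, beside 3473 genes (+ 1) and 3414 genes (+ 0.1). For the P number it called 126 genes (+ 1) and 274 genes (+ 0.1), while effective lengths as offsets gave 575, against 869 in the reported fit. JUP with AXL shRNA changed sign on both limma fits (-0.0048). For the P number, the 4 control and TP-0903 libraries alone called 2 members and 1075 genes. They reversed CLDN1 (-0.071), CLDN2 (0.79), CLDN4 (0.074), CLDN12 (0.065) and TJP1 (-0.061). The 4 shRNA libraries alone called 2 members and 564 genes and reversed DSP (-0.051) and JUP (-0.15). With each library left out in turn, AXL shRNA gave 2 to 3 members and 4408 to 6105 genes, TP-0903 0 to 2 members and 489 to 1727 genes, the difference 0 to 1 members and 1855 to 2670 genes, the P number 113 to 689 genes, and control shRNA against control 0 to 1 members and 343 to 1277 genes. In those fits the range crossed 0 for OCLN (-0.30 to 0.012), DSP (-0.18 to 0.34) and PKP2 (-0.47 to 0.89) with TP-0903, for CLDN2 (-1.18 to 0.36) and DSG2 (-0.094 to 0.26) in the difference, for CLDN1 (-0.016 to 0.38), CLDN2 (-0.72 to 0.083), CLDN12 (-0.056 to 0.031) and JUP (-0.094 to 0.14) by P number, and for CLDN4 (-0.022 to 0.42), TJP1 (-0.22 to 0.047) and PKP2 (-0.77 to 0.65) between the control groups; none of these had passed. Where an arm was left with 1 library, that library was assumed to vary like the other groups. Fewer libraries enter these fits; the cause of the other changes was not tested. Effective lengths differed between libraries by 29.03% for PKP2 and 20.8% for CLDN4. Each group had 2 libraries, and PKP2 and CLDN2 differed by P number. Changes of CLDN2 with AXL shRNA (-1.65 with the block) and TP-0903 (-2.15) passed with the block and not in the reported fit. The same held for PKP2 with AXL shRNA (1.25).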
